A study of Zea mays subsp. mays x Zea mays subsp. mexicana with 20 samples.

Results

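Chromosome 5 of the maize inbred W22 carries *Tpd1*, the driver locus of *Teosinte Pollen Drive*, and it is described here through all of its 223 windows of 1 Mb, of 2127 such windows on the 10 chromosomes. Every window of the chromosome was used, with or without SNPs. The values are numbers of fixed SNPs against W22 in DNA of leaf tissue from bulked seedlings of homozygous *Tpd1;Tpd2* plants. There were 2 such lines, each with 1 library, which trace to one gamete of teosinte *mexicana* crossed to W22. One line had 8 backcrosses and 3 self-pollinations (BC8S3), and the other, maintained separately, had 5 backcrosses and 2 self-pollinations by its title (BC5S2), whereas a protocol text names it BC5S3. Both lines were homozygous for *Tpd1* and *Tpd2*. The series' 18 bulked segregant pools were not analysed here (6 each of *Tpd1+/-;Tpd2+/-* drive plants, *Tpd1+/-;tpd2* sterile plants and fertile plants without *Tpd1*). The table has 1 count per window and names both lines, and the sources do not state whether a count is of 1 line, of the sum or of the union of both. A SNP that the lines share could thus have been counted more than once, and donor sequence present in only 1 line could be missing. The counts on the chromosomes sum to 279947 SNPs. The study reports a larger set of markers from these lines, so the table is not that full set. Shares given here are of the table alone. The highest window of chromosome 1 held 12 SNPs and that of chromosome 4 held 11. The study lists intervals associated with the drive on both of these chromosomes. No replicate, no spread between lines and no test can be given. Only SNPs at an allele frequency of 1 were kept by the authors, which means that sequence still segregating in a line is not counted. Intervals given for counts are exact Poisson intervals at 95% and account for the error of counting alone, since neighbouring SNPs are inherited together.

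Gene drive of this kind has a toxin that kills pollen and an antidote that spares the grains carrying it. The toxin on chromosome 5 is a long non-coding hairpin RNA of *mexicana*, which is processed by Dicer-like enzymes into small interfering RNAs (siRNAs). *Dcl2* encodes the Dicer-like protein that makes 22-nt siRNAs, and the study places a *mexicana* allele of it, a partial antidote, on the short arm of the same chromosome. The target, *Tdr1* (Zm00004b012122), encodes a GDSL lipase needed for viable pollen and also lies on the short arm. Repeated backcrossing to W22 removes most donor sequence, and what is retained can be linked to a selected locus or remain by chance. A run of windows rich in fixed SNPs is read as retained donor sequence, and why it was retained was not tested.

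The following siRNAs name the chromosome 5 loci around which the windows are read. Each is the most abundant siRNA of its cluster in the study's list of clusters that were higher in *TPD* pollen, and the capital marks the 5′ nucleotide, which in plants guides the choice of Argonaute protein. Both hairpin clusters are on the plus strand of W22 at chr5:94365859-94368624 and chr5:94369745-94372510, and the *Tdr1* cluster, with no strand assigned, is at chr5:40016604-40019259. Lengths were 22, 23 and 22 nt, in the order printed.
*Tpd1* hairpin, left cluster: Ucaucaaacagcuuguacucau
*Tpd1* hairpin, right cluster: Cgagcacggaccgaaguaugcua
*Tdr1* cluster: Cuccucgaguaggugcuccauc

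Fixed SNPs of chromosome 5 lay almost entirely in 2 blocks of neighbouring windows, with the rest of the chromosome close to W22. A window was termed raised at 100 or more SNPs, and 55 of the 223 windows were raised, or 24.7%. The background over all chromosomes was 5.36% of 2127 windows, and on the other 9 chromosomes 59 of 1904 windows were raised. On chromosome 5 the classes were far apart, as the highest window below the threshold held 7 SNPs and the lowest above it held 443. At 250 SNPs the raised windows of chromosome 5 were again 55 (background 5.27%), at 500 SNPs 54 (5.12%), at 1000 SNPs 48 (4.65%) and at 2000 SNPs 40 (2.96%). Chromosome 5 held 163822 SNPs, or 58.5% of the 279947 counted on the chromosomes (Wilson interval 58.3 to 58.7), on 10.5% of the length. Without the 10 windows with the most SNPs, its share was 49.9%. Of the chromosome 5 SNPs, 95.3% lay in a stretch of 51 windows from 80000001 to 131000000, 4.50% in a stretch of 4 windows on the short arm from 18000001 to 22000000, and 0.165% in the 168 low windows. The study places the *Tpd1* hairpin on the short arm too, near the centromere. The long stretch, which holds the hairpin, thus also begins on the short arm, and the name short-arm stretch is kept for the 4 windows only. The fewest windows that together held 50% of the chromosome's SNPs were 19, and 53 held 99%.

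**Figure D1:**
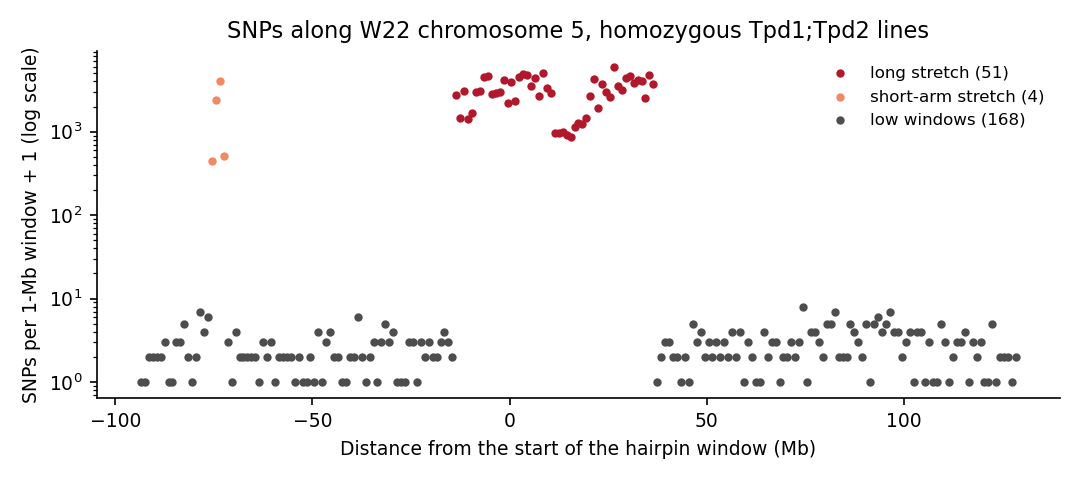
Number of SNPs in each of the 223 windows of chromosome 5, plus 1 on a log scale, against the distance in Mb from the start of the window with the *Tpd1* hairpin; each point is 1 window at its centre, coloured as long stretch, short-arm stretch or low. The 55 raised windows sit at 443 SNPs or above and the 168 low windows at 7 or below.

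The *Tpd1* hairpin lay in a window rich in fixed SNPs, but not in the richest. The window from 94000001 to 95000000, which holds both hairpin clusters, had 3963 SNPs (3841 to 4088), in place 16 of the 51 windows of the long stretch. Its neighbours were lower, with 2218 SNPs on the left and 2359 on the right, and the mean of these 3 windows was 2847. There were 14 windows of the long stretch to the left of the hairpin window and 36 to its right, so that the hairpin was nearer the left edge. The 2 windows from 97000001 and 98000001 held 4968 and 4824 SNPs, and both exceeded the hairpin window beyond counting error.

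*Tdr1*, the target of the hairpin siRNAs, lay in a window that looked like W22. The window from 40000001 to 41000000 held 1 SNP (0.0253 to 5.57), and its neighbours held 0 on either side. Over the 11 windows from 35000001 to 46000000 the SNPs summed to 9, and none of these windows held more than 3. The *Tdr1* window began 18 Mb after the end of the short-arm stretch and ended 39 Mb before the start of the long stretch. It was 54 Mb from the hairpin window, with low windows on both sides. A piece of donor sequence much shorter than a window, with few SNPs, was not detectable at this resolution.

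The short-arm stretch, in the arm where the study places *Dcl2*, was short and peaked. Its windows held 443, 2406, 4021 and 509 SNPs from left to right. The inner pair held 6427 of the 7379 SNPs, or 87.1%. The outer windows held 18.4% and 12.7% of the count of the inner window beside them. The window with 4021 SNPs (3898 to 4147) was in place 17 of all chromosomal windows and was close to the hairpin window, whose Poisson interval overlapped its own. The study places *Dcl2* within a *mexicana* interval of the short arm that is linked to *Tpd1*. The length it gives for that interval is below that of these 4 windows. Whether the outer windows are only partly donor sequence was not tested. *Dcl2* itself was not placed in a window, since no W22 coordinate of it was used here.

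The edges of the long stretch were sharp at 1-Mb resolution. On the left, the window from 80000001 held 2789 SNPs (2686 to 2894), against 1 SNP in the window before it, from 79000001. On the right, the window from 130000001 held 3765 SNPs (3646 to 3887) and the next, from 131000001, held 0, which allows up to 3. The 5 windows outside the left edge held 9 SNPs together, and the 5 outside the right edge held 6. Neither edge had a window of intermediate count, in contrast to the outer windows of the short-arm stretch.

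Within the long stretch the windows were uneven, with a lowest count of 862, a median of 2991 and a highest of 6037 (mean 3062 ± 1333, SD over 51 windows, which are not replicates). In successive groups of 10 windows from the left edge the medians were 2910, 3744.5, 1843.5, 2262 and 4123 SNPs, and the last window stood alone with 3765. The group from 120000001 to 130000000 had the highest median and that from 100000001 the lowest. The windows near the left edge alternated, with 2789, 1472, 3088, 1419 and 1685 SNPs in the first 5. Next to them, the windows from 85000001 to 89000000 held 2973, 3064, 4476 and 4648 SNPs. Each of the 7 windows from 96000001 to 103000000 held at least 2706, with a highest of 5009 in the window from 102000001. In 25 of the 51 windows there were at least 3000 SNPs, in 15 at least 4000 and in 2 at least 5000.

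**Figure D2:**
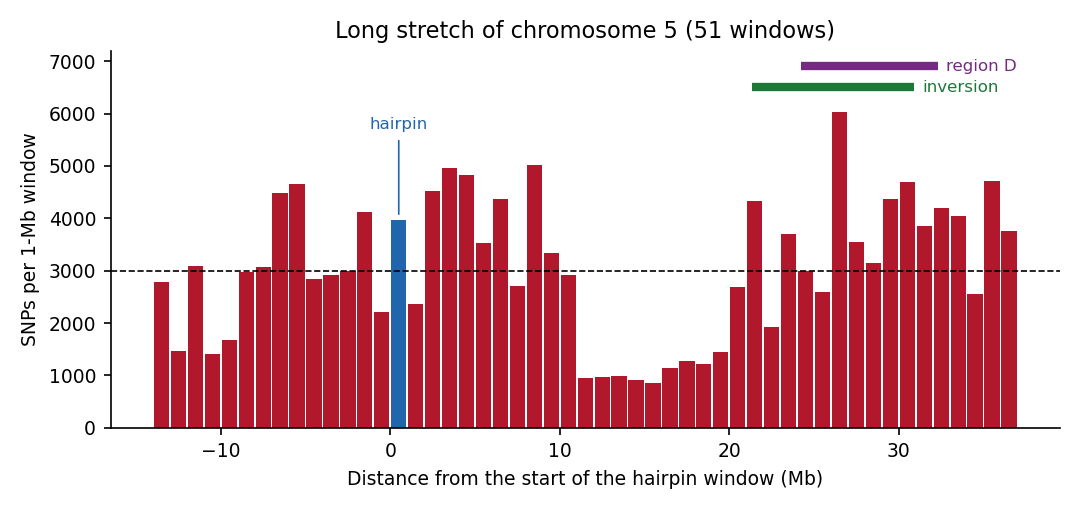
Number of SNPs in each of the 51 windows of the long stretch (bars from 0) against the distance in Mb from the start of the window with the *Tpd1* hairpin (blue), with the inversion and region D as lines above and the median of 2991 as a dashed line. A trough of 9 windows with 862 to 1452 SNPs lies between the hairpin and the inversion.

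Between the hairpin and the inversion was a trough of even counts. The study places the hairpin on the short arm and the inversion on the long arm, so the centromere also lies between them. By comparison with other maize inbreds, the study puts the hairpin 5 Mb from the centromere. The window that starts 5 Mb after the start of the hairpin window held 3526 SNPs, and the trough starts 11 Mb after it. The centromere was not placed in a window here, and its part in the trough was not tested. The trough was chosen after the counts were seen, as the longest run of windows under 1500 SNPs in the stretch, so that its depth and its evenness are partly set by that choice and are given as a description. It spanned 9 windows from 105000001 to 114000000 with 951, 968, 981, 916, 862, 1148, 1268, 1223 and 1452 SNPs. The counts were lowest in the fifth window and higher from the sixth on. The median was 981 in the trough and 3434.5 in the other 42 windows of the stretch, a ratio of 3.50. The trough held 6.26% of the SNPs of the stretch on 17.6% of its windows. Its left side was the largest step of the whole stretch as a ratio (3.07), though not as a difference (1965, exceeded at 6 other steps), with 951 SNPs in the window from 105000001 against 2916 in the window from 104000001, and on its right the window from 114000001 held 2684.

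The first 5 windows of the trough differed little from each other. These are the windows of the trough under 1000 SNPs, a limit also set after the counts were seen. They had a mean of 935.6 ± 47.8 SNPs, or a coefficient of variation of 5.11%, and their Poisson intervals all overlapped. Among all 47 runs of 5 neighbouring windows in the stretch, this coefficient had a median of 26.9% and a highest value of 65.2%, and no other run was below 7.49%. The variance was 2.44 times the mean in these 5 windows and 580 times the mean over the long stretch. These 2 ratios differ in number of windows, span and mean, so the runs of 5 are the closer comparison. The bases that could be called in each window are not in the table, and their part in the trough was not tested.

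Over the long stretch as a whole, neighbouring windows often differed by more than counting error. Over the 50 steps between neighbours, those within the trough included, the larger count was a median of 1.35 times the smaller. In 5 steps it was at least 2 times. These steps were at the left side of the trough, at both sides of the window from 82000001, between the windows from 115000001 and 116000001, and between those from 119000001 and 120000001. The last of them led to the highest window of the genome, from 120000001 to 121000000, with 6037 SNPs (5886 to 6191) between neighbours of 2594 and 3539. Despite these steps, counts of windows 1 Mb apart were moderately correlated (Pearson's r = 0.49 and Spearman's rho = 0.45 over 50 pairs of neighbours on 1 chromosome, given as a description). The median difference between neighbours was 1045 SNPs. These values include the trough, and the correlation without it was not computed. At 10 Mb apart r was -0.22 and rho -0.16 over 41 pairs.

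The inversion of the *Tpd1* haplotype and region D, a span with a domestication sweep in maize inbreds, lay in the long stretch to the right of the trough. Region D includes *Bt1*, which encodes an ADP-glucose transporter of the endosperm. By the W22 coordinates in the study's text, the inversion touched 10 windows from 115000001 to 125000000, the first of which began 21 Mb after the start of the hairpin window. The 8 windows wholly inside it held 1930, 3704, 2988, 2594, 6037, 3539, 3154 and 4372 SNPs. The windows that hold its ends were both high, with 4335 SNPs on the left and 4691 on the right. Inside the inversion the median was 3346.5 SNPs per window, against 2920 in the 41 windows of the stretch that it did not touch. The difference was 426.5, and 7 of the 8 windows inside lay within the range of those 41.

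The sides of the inversion were unlike each other. The 10 windows to its left, most of them in the trough, had a median of 1064.5 SNPs, and the 6 windows to its right, up to the edge of the stretch, had a median of 3955.5. The median inside lay between these values. Against the windows within 10 Mb on both sides the difference was 1986.5, so that its size depended on how much of the comparison the trough filled. Region D wholly held 7 windows, with a lowest count of 2594, a median of 3861 and a highest of 6037. The 42 windows of the stretch that region D did not touch had a median of 2918 and ranged between 862 and 5009. The 5 windows inside both spans had a median of 3539 SNPs.

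The long stretch was set beside the raised windows of chromosomes 6 and 10, which hold the other large blocks. Its median of 2991 SNPs per window compared with 1593 over the 33 raised windows of chromosome 6, a difference of 1398, and with 2841 over the 13 raised windows of chromosome 10, a difference of 150. The raised windows of chromosome 6 form 4 stretches, and the largest, with 21 windows, had a median of 1466. The other stretches of that chromosome, with 6, 4 and 2 windows, had medians of 3005, 2559 and 809.5, the first of them close to that of the long stretch. The difference from the pooled windows of chromosome 6 stayed positive with means, at 1000 SNPs or without the outer windows of each stretch. That from chromosome 10 was -70 without the outer windows, so that no order of these 2 chromosomes can be given. Of the 51 windows, 12 exceeded the highest window of chromosome 6 (4233 SNPs) and 15 exceeded that of chromosome 10 (3989 SNPs). Relative to its mean, the spread over windows was 43.5% in the long stretch, 52.1% in the raised windows of chromosome 6 and 41.8% in those of chromosome 10. With 1 count per window, none of these differences was tested.

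**Figure D3:**
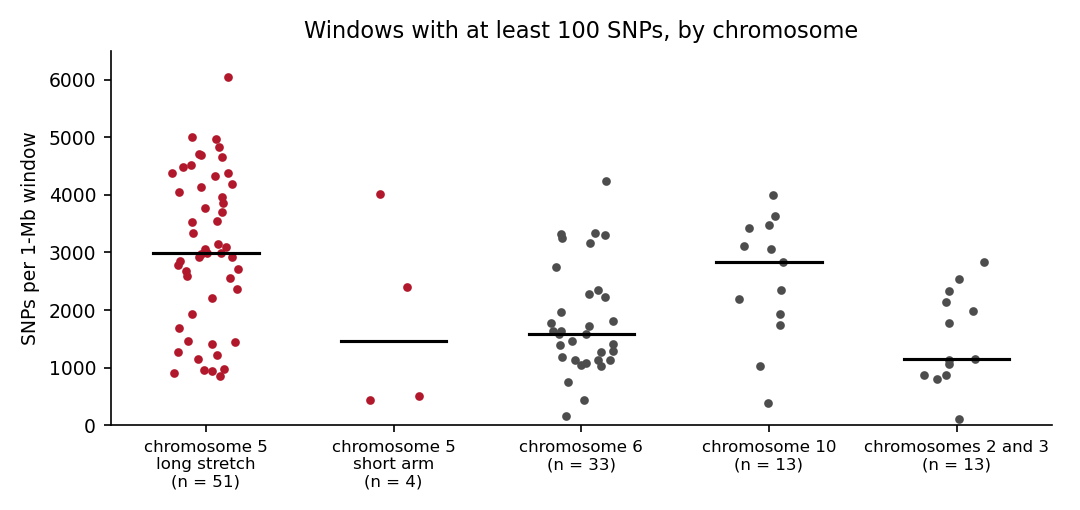
Number of SNPs in each raised window (points, spread sideways for visibility), with the median as a line, for the long and the short-arm stretch of chromosome 5 and for chromosomes 6, 10, and 2 and 3 combined. The 12 windows above 4233 SNPs are all in the long stretch of chromosome 5, and its range overlaps that of every other chromosome shown.

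Outside the 2 stretches, chromosome 5 was close to W22. The 168 low windows held 270 SNPs, a mean of 1.61 per window (1.42 to 1.81), and 40 of them held none (23.8%, Wilson interval 18.0 to 30.8). The low windows of the other 9 chromosomes had a mean of 1.82 (1.76 to 1.89) and 25.5% held none. By chromosome the means of those others ranged between 1.03 and 2.63, and chromosome 5 was in place 5 of 10 from the lowest. In 130 low windows of chromosome 5, or 77.4%, there were at most 2 SNPs. The highest was the window from 168000001 with 7 SNPs (2.81 to 14.4), followed by those from 15000001, 176000001 and 190000001 with 6 each. The longest run of windows with no SNP was 3 windows, from 65000001 to 68000000.

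**Figure D4:**
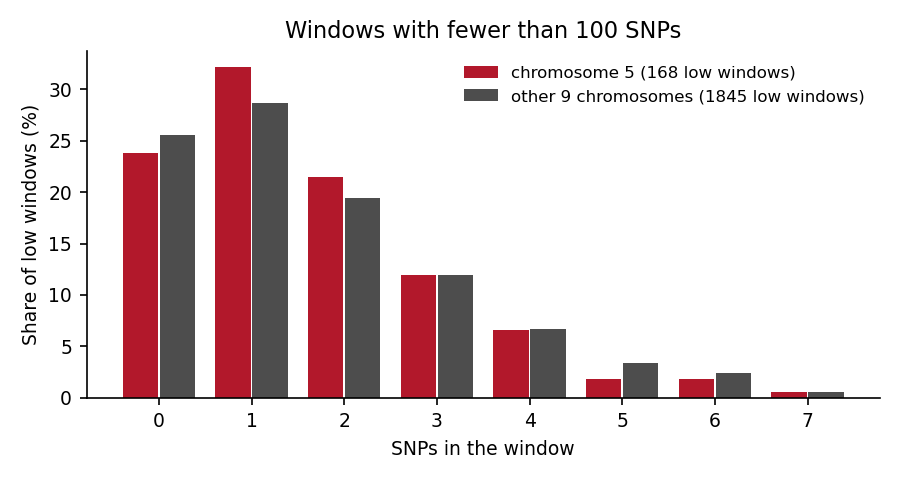
Share of low windows, in percent, that hold 0 to 7 SNPs, for chromosome 5 (168 windows, red) and the other 9 chromosomes (1845 windows, grey). The shares are 23.8% and 25.5% at 0 SNPs and 32.1% and 28.7% at 1 SNP, and 24 windows of the other chromosomes with more than 7 SNPs are not drawn.

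The mean count of the low windows varied somewhat along the chromosome, with overlapping intervals between the segments. Before the short-arm stretch 18 windows had a mean of 1.67 SNPs (1.12 to 2.38), between the stretches 58 windows had a mean of 1.24 (0.971 to 1.56), and after the long stretch 92 windows had a mean of 1.83 (1.56 to 2.12). The intervals of the middle and the last segment barely overlapped, and that of the first covered both means. In groups of 20 windows to the right of the long stretch, the group from 171000001 to 191000000 had a mean of 2.95 SNPs (2.25 to 3.81), and the groups on either side of it had 1.60 and 1.70. In that group 1 of 20 windows held no SNP. These groups were laid out from the edge of the stretch, the group named is the highest of them, and the comparison was not tested. No window next to a raised one was above the range of the other low windows, and without the windows within 2 Mb of a stretch the mean was 1.60.

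Finally, the positions of the siRNA clusters of chromosome 5 in the study's table were read against the SNP windows. Of 27 clusters higher in *TPD* pollen, 9 lay in the long stretch, 0 in the short-arm stretch and 18 in low windows. Of the 223 windows of the chromosome, 22.9% belong to the long stretch, 1.79% to the short-arm stretch and 75.3% are low. Clusters can share a window, and the 27 fell in 20 windows, 5 of them in the long stretch with 1268 to 4824 SNPs and 15 low with 0 to 6, close to the shares of all windows. In the long stretch were both hairpin clusters, 6 of the 11 clusters at LTR retrotransposons and the cluster at a hAT transposon, the last in the window of 4824 SNPs. All 11 clusters at PIF/Harbinger transposons lay in low windows, which are 75.3% of all windows of the chromosome, with at most 3 SNPs. The cluster at a CACTA transposon began 44.2 kb past the last window of the long stretch, in a window with 0 SNPs. That distance is to a window boundary, and the end of the donor sequence itself was not located. Of the 5 clusters lower in *TPD* than in wild-type pollen, 1 lay in the long stretch, in the window of the trough with 916 SNPs, and the other 4 lay in windows with 0 or 1 SNP.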

How the data were processed

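DNA libraries of 2 homozygous *Tpd1;Tpd2* lines were processed by the authors with Cutadapt 3.1, BWA 0.7.17 on the W22 genome and SAMtools 1.10, and Freebayes calls were filtered on read depth, call quality and allele frequency, which had to be 1. Each deposited value is a whole-number count of such SNPs in a window of 1 Mb, with no scaling applied. How the lines were combined is not given in the sources used here, and read depth and callable bases per window are unknown. Positions were written 1-based.

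Windows with at least 100 SNPs were termed raised, and neighbouring raised windows formed a stretch. Shares have 95% Wilson intervals and counts 95% exact Poisson intervals. The finding of stretches was checked on simulated counts with planted blocks far above the threshold. Windows of intermediate count were not part of that check, so it says nothing about them. No test was made between windows or chromosomes. Windows, loci, threshold and lists were chosen with earlier results of these data known. Named were loci with W22 coordinates in the study's text or its siRNA cluster table (positions and sequences only), windows of stretches, windows with a cluster and the highest low windows. Alternatives covered threshold, gap, mean or median, outer windows and placement of loci. Python 3.11.15, NumPy 2.4.6, pandas 2.3.3 and SciPy 1.17.1 were used.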

Additional observations from a re-analysis of the deposited data

How the results depend on the processing

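The number of raised windows on chromosome 5 stayed between 40 and 55 at every threshold run. The number of stretches was 2 or 3 except at 2000 SNPs with no gap joined, where it was 6. The stretch with the hairpin had 51 windows up to 500 SNPs, 25 at 1000 SNPs with or without gaps of up to 2 windows joined and at 2000 with gaps joined, where windows of the trough fall below the threshold, and 20 at 2000 without, where 3 windows near the left edge with 1419 to 1685 SNPs do so too. The share of SNPs on chromosome 5 was 59.2% over raised windows, 7.43% over low windows and 49.9% without the 10 highest windows. The long stretch exceeded the raised windows of chromosome 6 by 1246 SNPs and those of chromosome 10 by 509 as means. Without outer windows the difference of medians from chromosome 10 was -70. The inversion exceeded the rest of the stretch by 641 as a mean, 701.5 with windows touched, 789 weighted by the part inside and 1986.5 against windows within 10 Mb. The hairpin value was 2847 as a mean of 3 windows and 3735 in 1 Mb centred on it. The other values moved by less than their counting interval or by at most 1.5 times. Without replicates in the table, neither line could be left out. No paired analysis was possible because the table has 1 column that names both lines. Unknown depth and callable bases limit every count.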
